A study of Rattus norvegicus with 4 samples.

Results

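The comparison described here set the testis of vitamin A-deficient rats 8 h after retinol against the untreated deficient testis. It used 2 of the 4 samples of the series, 1 per group, and every probe set with a single gene symbol, which gave 4736 genes. A gene's change was the mean over its probe sets of log2 (8 h ratio / VAD ratio), where VAD is the vitamin A-deficient sample. Both groups were rats that went on a diet lacking vitamin A when they were 20 days old and stayed on it for 9 weeks. The VAD group received no retinol (0 h) and the 8 h group was taken 8 h after it. The samples at 4 h and 24 h came from the same scheme and are quoted beside the 8 h values. Every retinol sample is set against the same VAD sample, so the times are not separate checks of a change. The sources used here do not give strain, retinol dose, route, number of animals or pooling, and no replete group is analysed here. With 1 sample a group no difference has a replicate check, no p-value was computed, and the differences are those between these samples.

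Retinol is the transport form of vitamin A. Cells oxidise it to retinal and then to retinoic acid, which binds the receptors RAR and RXR and switches target genes on or off. In the adult testis Sertoli cells nurse the germ cells, Leydig cells make testosterone, and spermatogonia need retinoic acid to differentiate and enter meiosis, so a deficient testis loses its later germ cells. Whole testis was profiled, and in such bulk tissue fewer cells of a type and less RNA per cell cannot be told apart.

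The array was the Affymetrix Rat Genome U34, which reads a transcript with short probes grouped into a probe set, and the deposited values were ratios with no unit of level. A ratio of 1 means equal to a reference whose nature the sources used here do not give. For 59.9% of probe sets the VAD ratio lay within 10% of 1. The median ratio was 0.995 in VAD and 0.923 at 8 h, and the SD over probe sets was 0.17 and 0.509. The median change over all genes was -0.12, with quartiles at -0.39 and 0.17, and 61.5% of genes (2911) were below VAD. Scaling on the bacterial spike-ins, transcripts added in fixed amounts, would raise every change by 0.56 and the median of all genes to 0.44. Ratios hold no level, so the presence of testis cell types could not be checked, and only the changes of their markers could be. Of 14 Sertoli markers, 11 were measured, with ratios of 0.726 to 1.45 in VAD and 0.871 to 3.01 at 8 h and a median change of 0.48, while the broader Sertoli list of 40 genes had a median of -0.13 with 25 below VAD. The 6 of 8 Leydig markers measured had ratios of 0.763 to 1.21 in VAD and 0.526 to 1.81 at 8 h (median change 0.12). The 5 of 7 macrophage and leukocyte markers had a median change of 0.19, the 5 of 5 peritubular myoid markers of -0.39 (the list of 23 genes -0.04), and the 5 of 6 spermatid markers of -0.37. Whether shifts in cell number took part in the changes below was not tested.

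The 8 h array stood at least 2-fold above VAD for 134 genes (2.83% of 4736) and at least 2-fold below it for 89 (1.88%). Centring each array on its median gene changed this split to 179 and 58, and spike-in scaling to 561 and 12. Of the 134 higher genes, 58 had a VAD ratio below 0.9, and of the 89 lower, 24 had one over 10% above 1. With 8 h read against 1, 89 of the 134 and 70 of the 89 stayed past 2-fold. Most of these genes rest on a single piece of evidence. Of the 223 genes, 199 were read from 1 database sequence, and in all 5.45% of the genes with 1 sequence passed 2-fold against 2.22% of the 1083 genes with 2 or more. The sequences of a gene share the 2 samples, and they were treated as more separate readings than probe sets of 1 sequence. How far their probes differ, or lie apart along the transcript, was not determined, so how separate these readings are is unknown. Over the 819 genes with exactly 2 sequences, the noise of 1 reading (the SD of the difference divided by the square root of 2) was 0.51. It holds probe error and real differences between transcript forms, and says nothing of how animals differ. The paired readings had the same sign in 52.5% of these genes, and their correlation across genes, which are not independent replicates, was 0.13.

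Genes were therefore ranked by agreement: every one of 2 or more sequences had to lie at least 1.5-fold (0.58 on the log2 scale) from VAD in the same direction. This held for 21 genes on the higher side (1.94% of 1083) and 18 on the lower side (1.66%). The balance of the sides turns on scaling: centring gave 28 and 7, and spike-in scaling 186 and 0. In 33 genes (3.05%) sequences passed 1.5-fold in opposite directions. At the 2-fold level, 4 genes agreed on the higher side (0.369%) and none on the lower. Of the 21 higher genes, 12 were read without ESTs (expressed sequence tags, single-pass reads of cDNA ends) and 9 by an EST and another entry. Of the 18 lower genes, 7 were read by ESTs alone, 6 by both kinds and 5 without ESTs. Among the 819 genes with exactly 2 sequences, pairs of an EST and another entry (331) had the same sign in 48.9%. Pairs without ESTs (396) did so in 54.8%, and pairs of ESTs (92) in 55.4%. In 3 of the higher genes (Gpam, Dnm1l and Max) and in Capn8 among the lower ones, sequences had neighbouring database numbers, which leaves their readings less separate.

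**Figure D1:**
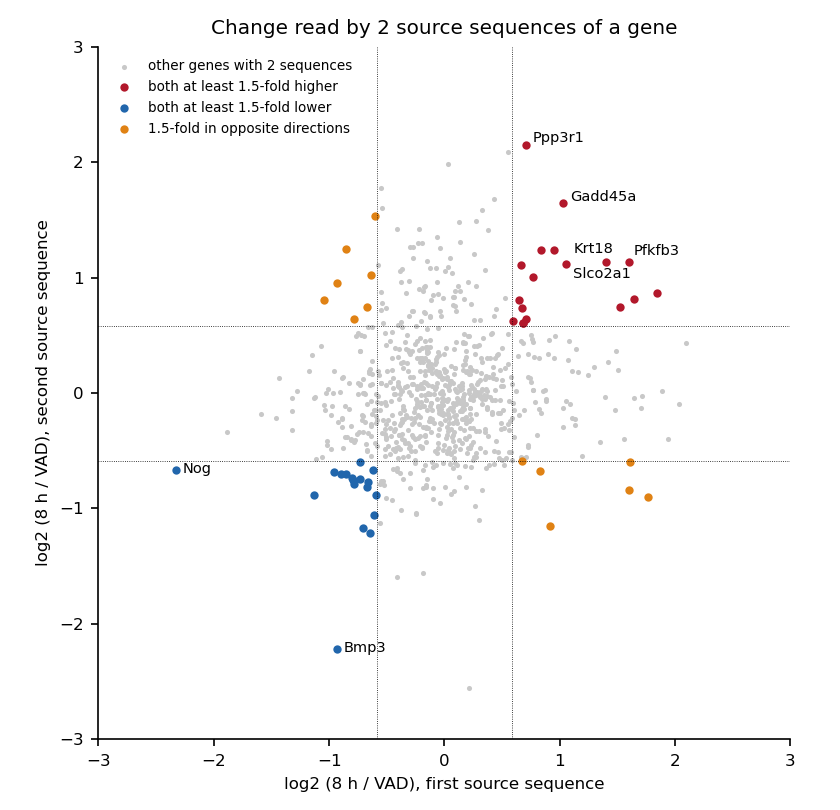
Change at 8 h against VAD as read by each of 2 source sequences, on log2 axes, for the 819 genes with exactly 2; dotted lines mark 1.5-fold. Most points form a round cloud, and few genes lie in the upper right or lower left corner, where both sequences pass 1.5-fold the same way.

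The 4 genes whose sequences all passed 2-fold were Pfkfb3, Krt18, Slco2a1 and Gadd45a. Their promoters are shown as the stretch from 250 bases before to 50 after the RefSeq start site (assembly GRCr8), together with that of Nr0b1, a nuclear receptor gene with a single probe set that had one of the 10 largest positive changes. Capitals mark the letters of AGGTCA or AGTTCA (single-site letters of the kind nuclear receptors bind in pairs), GGGCGG (a GC box) and CACGTG (an E box, the letters Myc and Max bind), on either strand. A match describes letters and is no evidence of binding.
Pfkfb3, chr17:71944683-71944982, plus strand: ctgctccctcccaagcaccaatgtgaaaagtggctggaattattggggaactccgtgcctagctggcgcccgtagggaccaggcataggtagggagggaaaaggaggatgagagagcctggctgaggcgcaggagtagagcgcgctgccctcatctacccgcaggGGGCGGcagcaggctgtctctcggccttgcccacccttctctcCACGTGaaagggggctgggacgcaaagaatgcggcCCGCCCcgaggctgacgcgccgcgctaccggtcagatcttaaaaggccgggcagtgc
Krt18, chr7:135035918-135036217, plus strand: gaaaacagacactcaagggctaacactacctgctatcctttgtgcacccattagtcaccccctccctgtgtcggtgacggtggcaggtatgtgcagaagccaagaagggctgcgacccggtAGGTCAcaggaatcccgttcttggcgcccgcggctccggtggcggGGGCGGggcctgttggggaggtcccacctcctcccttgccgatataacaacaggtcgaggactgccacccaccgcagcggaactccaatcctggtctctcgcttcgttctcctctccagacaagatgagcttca
Slco2a1, chr8:112467489-112467788, plus strand: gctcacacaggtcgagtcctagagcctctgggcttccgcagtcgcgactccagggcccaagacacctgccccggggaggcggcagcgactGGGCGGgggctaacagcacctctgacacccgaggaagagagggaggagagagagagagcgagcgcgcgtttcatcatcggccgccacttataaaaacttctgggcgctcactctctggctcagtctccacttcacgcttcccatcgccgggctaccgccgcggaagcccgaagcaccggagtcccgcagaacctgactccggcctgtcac
Gadd45a, chr4:97486750-97487049, minus strand: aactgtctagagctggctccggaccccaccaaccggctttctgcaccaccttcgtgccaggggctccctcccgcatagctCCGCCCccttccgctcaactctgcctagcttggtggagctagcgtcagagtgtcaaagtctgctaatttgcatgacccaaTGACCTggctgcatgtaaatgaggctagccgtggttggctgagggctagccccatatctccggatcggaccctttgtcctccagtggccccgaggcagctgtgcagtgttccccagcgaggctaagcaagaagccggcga
Nr0b1, chrX:54707408-54707707, plus strand: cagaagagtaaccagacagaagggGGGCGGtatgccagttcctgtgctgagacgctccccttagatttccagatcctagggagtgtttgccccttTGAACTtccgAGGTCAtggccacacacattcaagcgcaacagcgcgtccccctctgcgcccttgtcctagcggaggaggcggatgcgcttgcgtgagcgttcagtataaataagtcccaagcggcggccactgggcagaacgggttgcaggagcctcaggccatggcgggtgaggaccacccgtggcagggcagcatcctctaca

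AGGTCA began at position -129 of Krt18, at -90 of Gadd45a (minus strand) and at -145 of Nr0b1, counted from the start site to the leftmost base on the gene's strand. Nr0b1 also held AGTTCA at -155 on the minus strand, and Pfkfb3 held CACGTG at -42. In this window AGGTCA was present in 3 of the 19 higher genes with a promoter in the table, in 0 of the 14 lower ones and in 13.5% of the 3871 measured genes with a promoter. CACGTG was present in 4 of the 19 (21.1%), in 1 of the 14 and in 8.5% of the measured genes. Among genes at least 2-fold higher it was present in 16 of 117 (13.7%). GGGCGG was present in 14 of the 19, 10 of the 14 and 56.2% of the measured genes. The direct repeat with 5 bases between such sites (DR5), searched with the letters AGGTCA and AGTTCA in either order, was in no promoter of a measured gene and in 10 of all 33469, and repeats with 2 and 1 bases between (DR2 and DR1) were in 1 and 4 measured genes. CAAGGTCA, which holds AGGTCA and is the site of the factor SF-1, and TGACGTCA, the cAMP response element, were in none of the 19 or the 14. No test was made on these shares.

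Pfkfb3 makes and breaks down fructose 2,6-bisphosphate, the strongest activator of glycolysis. Its first probe set had ratios of 1.49, 2.99, 4.52 and 3.06 in VAD and at 4, 8 and 24 h. The second had 1.04, 2.18, 2.29 and 2.22. Both stood above the shared VAD array on all 3 retinol arrays, with changes of 1.60 and 1.14 at 8 h and a gene mean of 1.37 (2.58-fold). Krt18, a keratin of simple epithelia that immature Sertoli cells also make, had ratios of 0.788, 1.43, 1.73 and 1.34 on these arrays from a coding sequence. Its EST had 0.668, 1.16, 1.77 and 0.929. The 8 h ratio was the highest of the 4 for both, and the mean change was 1.27 (2.41-fold), taken from VAD ratios that lay below 1.

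Slco2a1 carries prostaglandins into cells. Its ratios were 0.714, 1.08, 1.55 and 1.09 in VAD and at 4, 8 and 24 h from an mRNA and 0.947, 1.34, 1.96 and 1.53 from an EST. Changes of 1.12 and 1.05 made it the gene of these 4 whose sequences lay closest together. Gadd45a, a gene of growth arrest and DNA damage, was read by 4 probe sets. Those from its mRNA had ratios of 1.08 and 0.969 in VAD and 3.23 and 3.18 at 8 h. Those from an EST had 0.747 and 0.928 in VAD and 1.32 and 2.19 at 8 h. All 4 were above VAD at 8 h (0.82 to 1.72), whereas at 4 h the lowest was at -0.12.

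**Figure D2:**
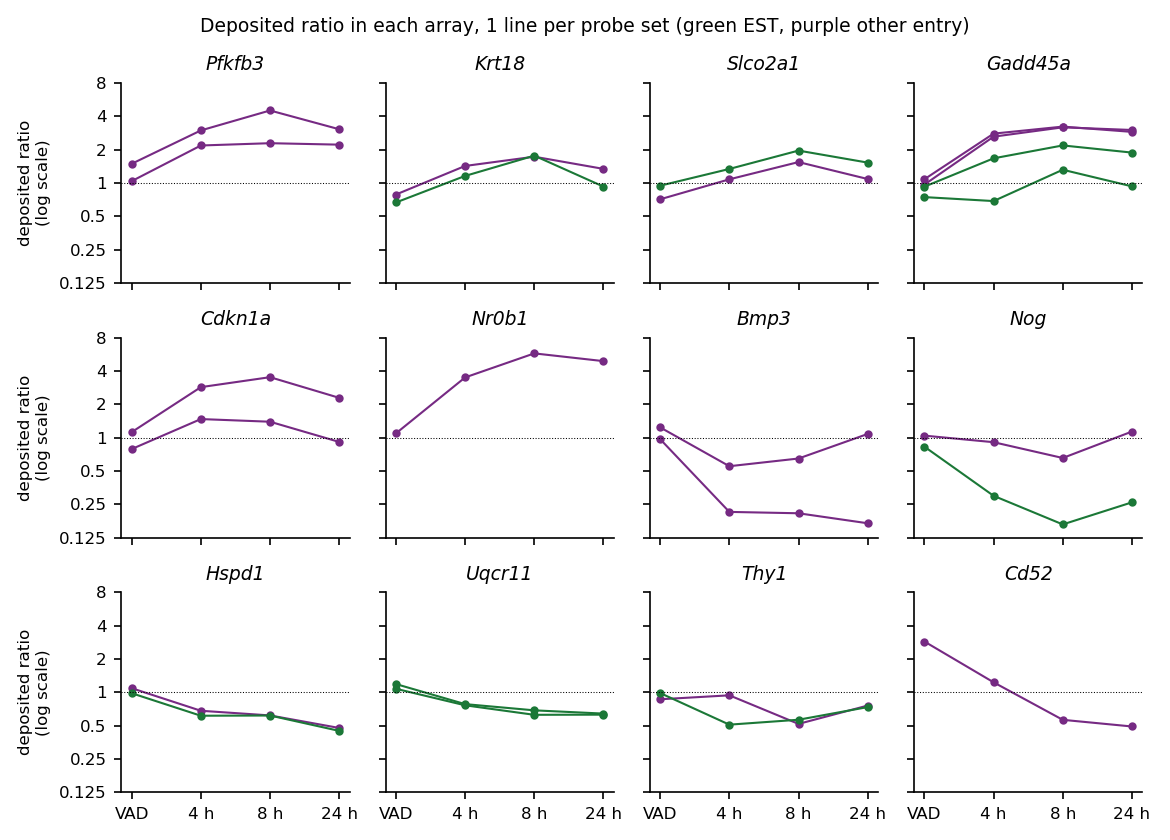
Deposited ratio (log axis) of 12 genes in the VAD, 4 h, 8 h and 24 h arrays, 1 line per probe set, with EST probe sets in green and others in purple. Both lines of Pfkfb3, Krt18 and Slco2a1 peak at 8 h, while those of Bmp3 and Nog part widely and Cd52 starts from a VAD ratio of 2.88.

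The cell cycle and replication list had 1 of its 20 genes with 2 or more sequences in agreement on the higher side, Cdkn1a. The immediate early and stress list had 2 of 25, Gadd45a and Max. These stand beside 21 of 1083 (1.94%) in all, and the differences were not tested. Cdkn1a encodes p21, an inhibitor of cyclin-dependent kinases. Its ratios were 1.12, 2.86, 3.52 and 2.29 in the order VAD, 4, 8 and 24 h for one sequence and 0.79, 1.47, 1.39 and 0.916 for the other. The 8 h changes of 1.65 and 0.82 gave a mean of 1.23, and the second sequence was back near VAD at 24 h (0.21). Max, the partner of Myc, had sequences at 0.84 and 1.24. Tcf12, a basic helix-loop-helix factor, had 0.77 and 1.01. Myc itself, read by 2 probe sets of 1 sequence, was at -0.84.

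The lipid and insulin signalling genes Gpam, Chka and Akt2 agreed as well. Gpam, the mitochondrial acyltransferase that starts glycerolipid synthesis, was read by 5 probe sets from 3 neighbouring sequences, with VAD ratios of 0.966 to 1.46 and 8 h ratios of 1.71 to 3.77. Its sequence changes ran from 0.82 to 1.46, around a mean of 1.20. Chka, choline kinase of phosphatidylcholine synthesis, had 3 sequences at 0.71, 1.27 and 1.52. Akt2, a kinase downstream of insulin, had ratios of 0.609 and 0.579 in VAD and 1.11 and 2.08 at 8 h. Its VAD ratios were far below 1, and taken against 1 the first sequence would not pass 1.5-fold.

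Further genes of this kind act at membranes, in mitochondrial shape and in signalling. Dnm1l, the GTPase that divides mitochondria, had 4 sequences between 0.76 and 1.24, 3 of them with neighbouring numbers. Nsf, the ATPase that resets the membrane fusion machinery, had 0.74 and 1.53. Atp1b2, a sodium pump subunit, had sequence means of 0.95 and 1.24 although 1 of its 3 probe sets was at 0.46. Ppp3r1, the regulatory subunit of calcineurin, had 0.71 and 2.15, the second from a VAD ratio of 0.356 and an 8 h ratio of 1.58. Rock2, a protein kinase gene, had a narrow pair, at 0.67 and 0.74. The other 6 were St3gal2 (0.81), Mapk9 (0.70), Gsr (0.67), Ptger1 (0.65), Gna12 (0.64) and Nppc (0.61), given as gene means. Ptger1 encodes a receptor for prostaglandin E2 and Mapk9 the kinase JNK2. Of all 21 genes, 9 had a VAD ratio within 10% of 1.

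**Figure D3:**
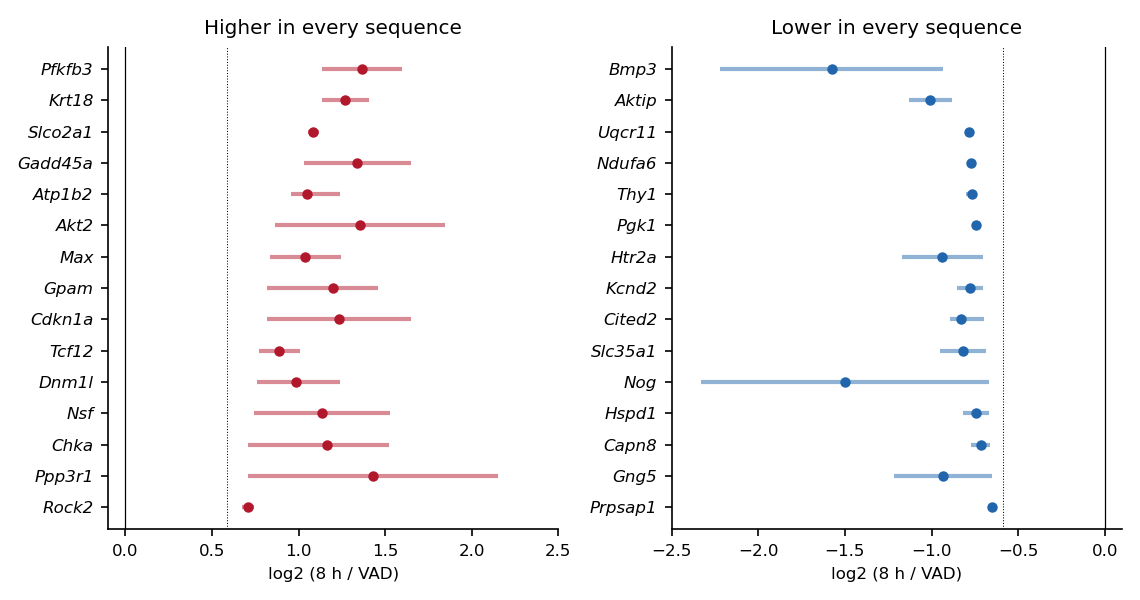
Log2 change at 8 h against VAD for the 15 highest-ranked genes on each side whose sequences all passed 1.5-fold (dotted line). Points are gene means over probe sets and bars run from the lowest to the highest sequence; the pairs of Uqcr11, Ndufa6 and Pgk1 coincide within the size of the point.

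On the lower side the genes with the largest means belong to bone morphogenetic protein (BMP) signalling. Bmp3, a BMP family member that opposes other BMPs, had ratios of 1.24, 0.553, 0.649 and 1.08 for one sequence and 0.97, 0.214, 0.208 and 0.169 for the other, in the order VAD, 4, 8 and 24 h. Both were below VAD at 8 h, at -0.93 and -2.22, but at 24 h the first was near VAD (-0.20). Nog encodes noggin, which binds BMPs and keeps them from their receptors. Its mRNA probe set had ratios of 1.04, 0.911, 0.656 and 1.14 and its EST 0.83, 0.299, 0.165 and 0.261. The 8 h changes of -0.67 and -2.33 lay far apart, and their shared sign was fixed by the agreement rule. The means for Bmp3 (-1.58) and Nog (-1.50) correspond to 2.98-fold and 2.83-fold lower. Bmp4, with a single probe set at 0.854 in VAD and 0.263 at 8 h, was at -1.70.

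In the respiratory chain list 2 of the 22 genes with 2 or more sequences agreed on the lower side, beside 18 of 1083 in all, a difference that was not tested. Uqcr11 of complex III had ESTs at -0.78 and -0.79, and Ndufa6 of complex I had ESTs at -0.79 and -0.75. Hspd1, the mitochondrial chaperonin HSP60 and the 1 of 25 such genes of the chaperone list to agree on that side, was at -0.82 from an mRNA and -0.67 from an EST. Its ratios were 1.09 and 0.982 in VAD, 0.619 and 0.618 at 8 h and 0.477 and 0.449 at 24 h, so the readings nearly coincided on all arrays. Hspe1, its partner chaperonin HSP10, was at -0.96 from 1 sequence.

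The remaining lower genes are mixed in function. Pgk1 of glycolysis had sequence means of -0.75 and -0.73, with 1 of 3 probe sets at -0.36. Thy1, a surface glycoprotein of spermatogonial stem cells and several other cell types, was at -0.74 and -0.80. Cited2, a transcriptional coregulator, had 3 EST probe sets at -1.07, -0.72 and -0.70. Aktip (-1.01), Htr2a (-0.94), Gng5 (-0.93), Slc35a1 (-0.82), Kcnd2 (-0.78), Capn8 (-0.72) and Prpsap1 (-0.65) complete the 15 named by rank, followed by Arl10 (-0.84), Myl12a (-0.74) and Tex261 (-0.69). Of the 18 lower genes, 12 had a VAD ratio within 10% of 1. All 18 means stayed below VAD after spike-in scaling, but then none had every sequence 1.5-fold lower, and 7 had so after centring.

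Other genes show how far sequences can part. Wt1, the Sertoli cell factor, was at 1.57 and 1.38 from its mRNAs and at -0.14 from an EST. Dusp1, a phosphatase that ends MAP kinase signals, was at 1.92, 1.89 and 0.09. Slc18a2, the vesicular monoamine transporter, was at 0.96 from an mRNA and -0.93 from an EST, which averaged to 0.01. Cldn3, a tight junction claudin, had 0.91 and -1.15. Nup58 (-1.09 to 1.24 over 5 sequences), Tpm3 (-1.32 to 0.92 over 5) and Kcnc2 (-1.17 to 0.94 over 4) had gene means over probe sets of -0.04, -0.04 and -0.16. By contrast Bcl2l1, a survival gene, was just outside the rule, with 4 sequences at 0.49, 0.71, 0.73 and 0.77.

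The 10 largest positive and 10 largest negative gene means all came from 1 sequence each. Of the positive ones, 5 started from a VAD ratio below 0.9, and of the negative ones, 4 started above 1.1. Gm2a, the ganglioside activator gene, had ratios of 0.488 in VAD and 1.61, 2.80 and 2.87 at 4, 8 and 24 h. Tfrc, the transferrin receptor gene, had 0.603, 1.80, 3.05 and 1.41. For both, the VAD reading itself lay well away from the reference, and the retinol arrays lay above it. Nr0b1, a repressor of steroidogenic transcription, started at 1.09 and had 3.50, 5.77 and 4.91, so its distance from 1 at 8 h (2.53) was slightly larger than its change (2.40). Acadsb (1.21 in VAD and 5.49 at 8 h) and Lig3 (1.25 and 5.70) also stood far above 1 at 8 h. Ptprd, a receptor phosphatase gene, had the largest change of all (2.76), with ratios of 0.775 in VAD and 1.75, 5.26 and 5.87 after retinol. Klhl14 (0.911 in VAD and 4.20 at 8 h), Sema4b (0.947 and 4.75), Efnb1 (0.898 and 4.21) and the fatty acid receptor gene Cd36 (0.817 and 3.63, as means of 2 probe sets) complete the 10. Among the negative changes Cd52, a lymphocyte and epididymal glycoprotein gene, started from 2.88 and was at 0.565 at 8 h, whereas Spock2 started from 0.632 and was at 0.113. Dnah8, an axonemal dynein gene, had 1.05 in VAD and 0.761, 0.265 and 0.698 after retinol, the lowest of the 4 being that of the 8 h array. The other negative ones were Rpe65 (0.902 in VAD and 0.223 at 8 h), the tubulin gene Tuba4a (1.40 and 0.397), Dpysl4 (1.14 and 0.343), Adam3a of the sperm surface (0.766 and 0.232), the forkhead gene Foxa2 (0.696 and 0.211), Bmp4 and Hsd17b8 (1.26 and 0.405).

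Gene lists were read against the median of all genes (-0.12). Of 41 lists, 35 had a median below 0 and 18 below that of all genes, and 5 lay 0.2 or more from it. Counts of members past 2-fold stand beside 2.83% of all genes higher and 1.88% lower, and no such count was tested. After spike-in scaling, 40 of the 41 medians would be above 0, the ribosomal one excepted, so only their place among other genes is described. The largest distance was that of the ribosomal protein genes (42 genes, median -0.61, 38 below VAD). The list was taken by symbol and holds Rps6kb1, a kinase that acts on a ribosomal protein, and without it the median is also -0.61. The 4 members above VAD were Rps6kb1 (0.18) and the like or paralogous genes Rplp1l3 (1.03), Rpl3l (0.68) and Rpl19l4 (0.36), so the other 38 were all below. Rpl17 and Rpl30 were the 2 members past 2-fold lower, and none of the 8 members with 2 or more sequences passed 1.5-fold in all of them. Respiratory chain genes came next (55 genes, median -0.46, 51 below VAD, none past 2-fold, 2 of 22 in agreement on the lower side). Their lowest members were Ndufb2 (-0.99), Atp5f1e (-0.96) and Ndufb8 (-0.86, with sequences at -1.77 to -0.48), and the highest was Ndufs1 (0.98). Both lists also lay below their own background within each kind of probe set: ribosomal genes were at -0.63 on ESTs, where all genes were at -0.26, and at -0.52 on other entries, where all genes were at -0.04. The respiratory chain values were -0.46 and -0.35. At 4 h and 24 h, against the same VAD array, the ribosomal medians were -0.38 and -0.54 and the respiratory chain medians -0.36 and -0.56.

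Other genes of basic cell upkeep lay lower by less. Proteasome and ubiquitin genes (44) had a median of -0.29 with 38 below VAD, among them Psmd2 (-0.92) and Psmb1 (-0.80), while the ubiquitin-conjugating genes Ube2d2b (1.22), Ube2h (1.09) and Ube2g1 (1.01) were past 2-fold higher. Chromatin and histone genes (32) were at -0.27, with the histone gene H2az1 at -0.75 and the remodelling ATPase gene Smarca4 at 1.12. Translation factors (31) were at -0.26 and RNA processing genes (42) at -0.24. Lysosomal genes (39), at -0.20, lay close to the median of all genes (-0.12), with 2 past 2-fold higher (5.13%) and 0 lower. They were at -0.25 on ESTs, where all genes were at -0.26, and at -0.20 on other entries, where all genes were at -0.04. None of the translation factors passed 2-fold, in either direction.

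**Figure D4:**
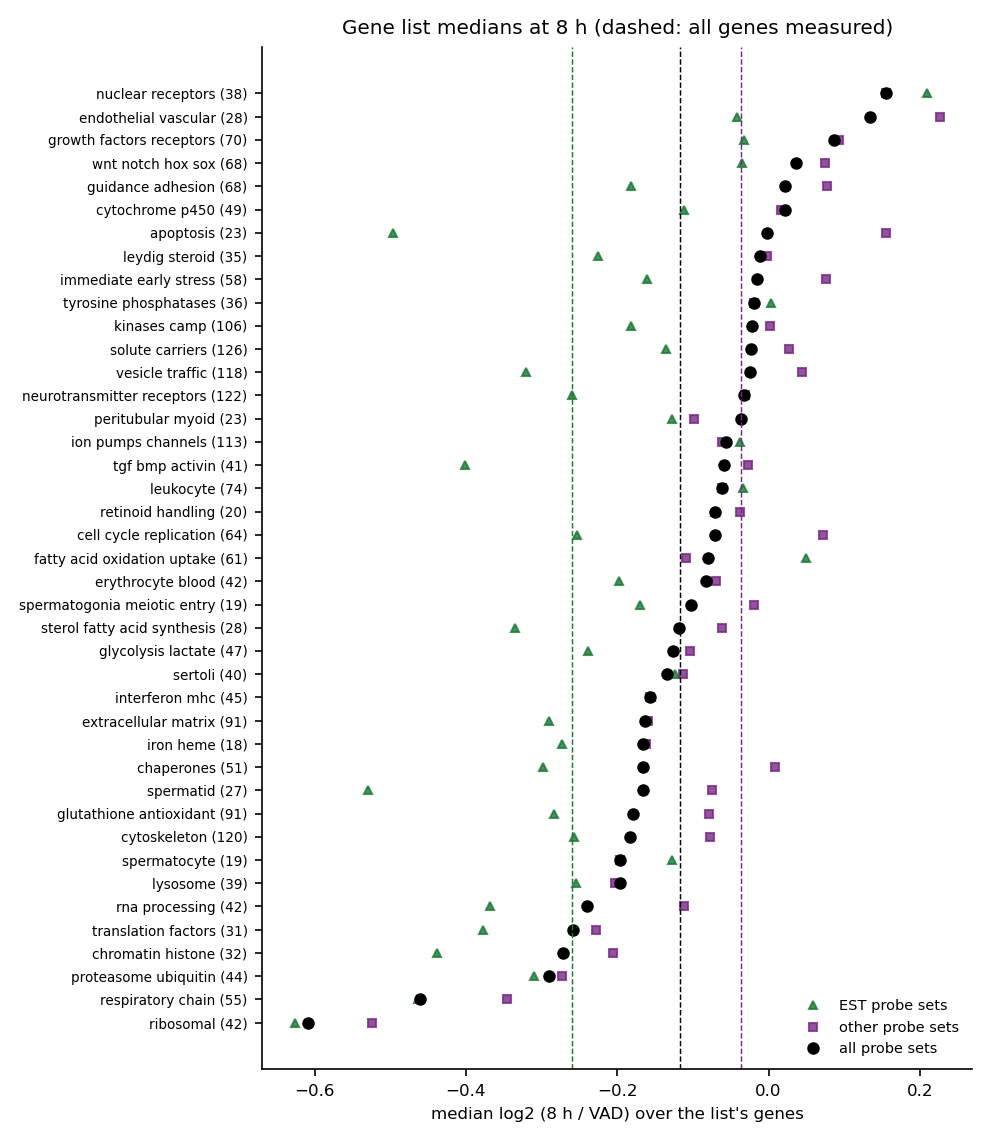
Median log2 change at 8 h against VAD for the 41 gene lists (number of genes in brackets), over all probe sets (black), EST probe sets (green) and other probe sets (purple; a list needs members of that kind). Dashed lines give the medians of all genes in the same colours. Ribosomal and respiratory chain genes are lowest in black, at -0.61 and -0.46, and the list of nuclear receptors and their cofactors is highest at 0.16.

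At the upper end was the list of nuclear receptors and their cofactors (38 genes, median 0.16, 3 past 2-fold higher, or 7.89%, and none lower). The 3 were Nr0b1 (2.40), Nr5a1 (1.24), the activator of steroidogenic genes also known as SF-1, and Esr1 (1.07), the estrogen receptor. Each was read from 1 sequence, and Nr5a1 had ratios of 0.763 in VAD and 1.81 at 8 h, so it was less than 2-fold above 1. The retinoic acid and retinoid X receptor genes themselves stayed close to VAD, from -0.29 for Rxra to 0.25 for Rara, whose sequences were at 0.17 and 0.42. The lowest of the list was Nr3c2 (-0.67), the mineralocorticoid receptor gene. Endothelial and vascular genes (28) had a median of 0.13 but went apart: Cav1 of caveolae was at 1.40 and Vegfd at 1.21, while Kdr, the main VEGF receptor, was at -1.15 and Angpt2 at -1.42. Growth factors and their receptors (70) were at 0.09, with 1 member past 2-fold higher, Gdnf (1.02), and none lower.

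Retinoid handling genes (20, median -0.07) had 1 member past 2-fold higher (5%) and 2 lower (10%). Rdh10, which oxidises retinol, had a ratio of 0.977 in VAD and of 1.53, 2.04 and 1.44 at 4, 8 and 24 h, a change of 1.06 at 8 h. The retinal dehydrogenase genes Aldh1a1 and Aldh1a2, which make retinoic acid, were at -0.57 and -0.60. The binding protein genes Crabp2 and Fabp5 were at -0.75 and -1.26, with Crabp2 starting from a VAD ratio of 0.394. None of these genes had a second sequence. Rpe65 (-2.02) and Fabp5 were the members past 2-fold lower.

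BMP, activin and TGF-beta genes (41) had a median of -0.06, with 3 past 2-fold lower (Bmp3, Bmp4 and Nog) and 1 higher, Smad9 (1.07), a carrier of BMP signals. Bmp6 was at 0.84 from sequences at 0.27 and 1.41, and the activin antagonist gene Fst was at -0.94 from 1 sequence. The inhibin genes Inha (-0.11), Inhba (0.26) and Inhbb (-0.02) were close to VAD. The list thus held ligands on both sides of VAD, with the antagonists Nog and Fst below it.

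Vesicle traffic genes (118, median -0.02) had 8 members past 2-fold higher (6.78%) and 1 lower (0.847%). Beside Nsf, the small GTPase genes Rab7a (1.26), Rab8a (1.10) and Arf3 (1.23), the synaptotagmin gene Syt2 (1.42) and Sec22a (1.15) were among the 8, and the dynamin gene Dnm3 (-1.04) was the 1 lower. Guidance and adhesion genes (68, median 0.02) had 6 higher (8.82%) and 2 lower (2.94%), with Sema4b, Efnb1 and Cadm1 between 2.06 and 2.33. Immediate early and stress genes (58, median -0.02) had Gadd45a, Dusp1 and Max past 2-fold higher and none lower. Cell cycle and replication genes (64, median -0.07) included Cdkn1a, Top2b (1.10) and Ccng1 (1.03) on the higher side and Mpg (-1.42) and Rbl2 (-1.05) on the lower.

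In sterol and fatty acid synthesis (28 genes, median -0.12) 3 members were past 2-fold higher and none lower. Acaca, acetyl-CoA carboxylase of fatty acid synthesis, was at 1.30, its relative Acacb at 0.91 and Gpam at 1.20. Most enzymes of cholesterol synthesis in the list were below VAD. Idi1 of isoprenoid synthesis was at -0.84 from sequences at -1.12 and -0.56, Sqle (squalene epoxidase) at -0.78 and Fdps at -0.66. Nsdhl (-0.64), Hsd17b7 (-0.61) and Cyp51 (-0.59, with sequences at -0.97 to 0.36) were also below VAD. Dhcr7 was above it at 0.66, as was Msmo1 at 0.55, the latter from sequences at 0.06 and 1.04. Soat1, which esterifies cholesterol, was at 1.03. Acaca, Gpam, Soat1, Idi1 and Sqle are among the extremes of the list and were picked for that. The others named were chosen after their values were seen, so these members do not describe the rest of the list.

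Among Sertoli genes (40, median -0.13), 4 were past 2-fold higher (10%), Krt18, Nr5a1 (1.24), the gap junction gene Gja1 (1.05) and Gdnf. The 2 lower were Bmp4 and Espn (-1.10), an actin bundler. Leydig and steroid genes (35, median -0.01) had Nr0b1 and Nr5a1 past 2-fold higher and Hsd17b8 (-1.64) and Hsd17b1 (-1.44) lower. The enzymes of testosterone synthesis Cyp11a1, Cyp17a1 and Hsd17b3 were at -0.22, -0.94 and 0.13, and Star was at 0.12 from sequences at -0.16 and 0.40. Peritubular myoid genes (23, median -0.04) ran from Cald1 (1.79) to Des (-0.98), and leukocyte genes (74, median -0.06) from Pla2g2a (2.13) to Cd52 (-2.35).

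Germ cell lists lay close to the median of all genes. Spermatocyte genes (19) had a median of -0.20 and spermatid genes (27) of -0.17, with 0.19 and 0.44 at 4 h against the same VAD array. Tnp1, a transition protein of sperm chromatin, had a ratio of 1.19 in VAD and of 2.01, 0.924 and 0.706 at 4, 8 and 24 h, and Fabp9, a testis fatty acid binding protein, had 1.12, 1.53, 0.43 and 0.656. For both genes the 4 h array was the highest of the 4. Spermatogonial and meiotic entry genes (19, median -0.10) had Kit at the top, at 0.70 from 2 probe sets of 1 sequence (0.63 and 0.77), and Thy1 at the bottom. Kitlg, which encodes the ligand of Kit, was at 0.48 from probe sets at 0.86 and 0.11.

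Features of the probe sets moved with the comparison. Probe sets made from ESTs (3417) had a median change of -0.23, with 3.04% at least 2-fold higher and 3.89% lower, and the other 5323 had a median of -0.04, with 4.49% and 1.92%. In the 476 genes read by both kinds the EST was lower in 281, and the median difference of EST minus other was -0.15. Control probe sets along the beta-actin, GAPDH and hexokinase transcripts differed by end. The 5' minus 3' values of the change were 1.27, 0.90 and 1.10 in that order. The 5' ratios of beta-actin were 0.597 in VAD and 1.29, 1.46 and 1.72 at 4, 8 and 24 h. Those of GAPDH were 0.835, 1.24, 1.29 and 1.255, and those of hexokinase 0.715, 1.285, 1.80 and 1.83. The 5' ratios were thus above the shared VAD array on every retinol array. The 9 spike-in probe sets were all lower at 8 h, from -0.73 to -0.31, with a mean of -0.56. Where a gene's probes lie along its transcript was not determined, and the part of these features in any gene's change was not tested.

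**Figure D5:**
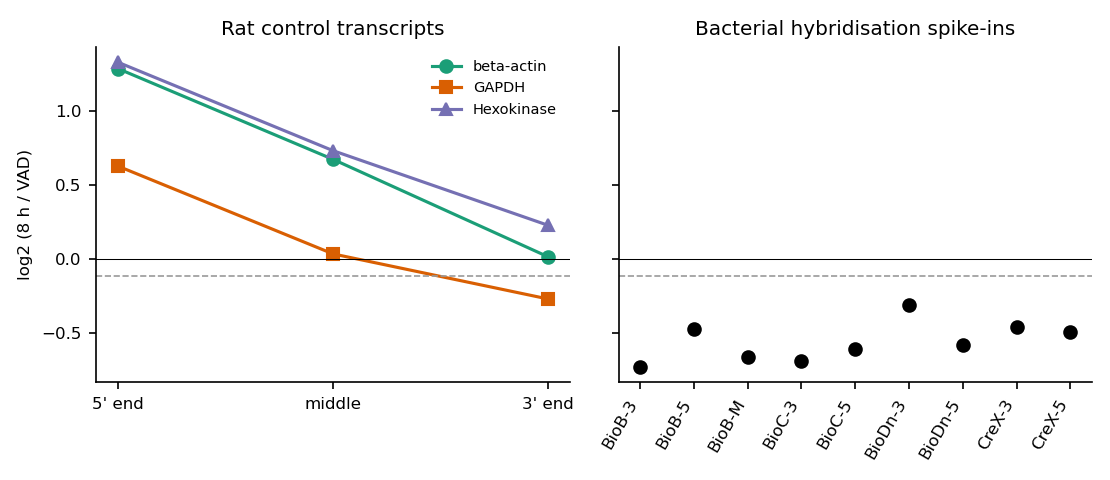
Log2 change at 8 h against VAD of the array's control probe sets, at the 5' end, middle and 3' end of 3 rat transcripts (left) and for 9 bacterial spike-ins (right). The dashed line is the median of all genes (-0.12); all 3 transcripts decline from the 5' to the 3' end, and every spike-in lies below 0.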

How the data were processed

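RNA of whole testis was hybridised to Affymetrix Rat Genome U34 arrays after labelling of 10 micrograms of total RNA, per the labels' protocols. GCOS and MAS5, scanner and signal software, are named without a version in the submitters' processing notes. The authors deposited 1 linear ratio per probe set and sample. How signals became ratios, against which reference, and with what scaling or pooling is not given in the sources used. No intensity or detection call was used, so the precision is limited by 1 array a group and the signal behind a ratio is unknown.

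Of 8799 probe sets, 59 were controls, 308 carried several gene symbols, 1426 had no gene symbol listed and 7006 carried 1 symbol. For 6985 of these the symbol was updated by Entrez ID from RefSeq (GRCr8). Ratios were put on the log2 scale with no pseudocount. A source sequence is the database entry in the probe set's name, and a sequence's change is the mean over its probe sets. Calculations used Python 3.11.15, pandas 2.3.3 and numpy 2.4.6 and were tested on simulated data. Genes named were the 15 on each side with the largest smallest sequence change among those in agreement, the 10 largest changes each way, 5 genes with opposite sequences, the 3 highest and 3 lowest of each of 41 lists (part is printed) and a fixed set of testis genes. Other list members and the genes after the first 15 were chosen after their values were seen. Members and lists were chosen with earlier results of these data known. Alternatives were other scalings, 1 as the reference, other summaries and subsets of probe sets, a pseudocount of 0.1 and other folds.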

Additional observations from a re-analysis of the deposited data

Results flagged for a closer look

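Some signal lay outside the genes compared above. Among the 1734 probe sets with no symbol or several, 60 stood at least 2-fold above VAD at 8 h and 58 at least 2-fold below it. These are 3.46% and 3.34%, beside 4.04% and 2.53% of the probe sets with 1 symbol. The 5' control probe sets of beta-actin and hexokinase were 1.29 and 1.33 higher on the log2 scale, while the 9 spike-in probe sets, added in fixed amounts, were all lower. The 5' probe set of LysX, a bacterial control, was 1.14 higher, with ratios of 1.15 in VAD and 2.52 at 8 h, while its middle and 3' probe sets were at -0.17 and -0.20. The cause of these differences was not tested.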

How the results depend on the processing

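With 1 array a group, leaving out a sample was impossible, and no result here is a test. No paired analysis was possible because each group holds 1 sample. Genes at least 2-fold higher numbered 134, against 561 with spike-in scaling and 238 with each gene's highest-mean probe set. That probe set was picked on the VAD and 8 h ratios themselves, so this choice favours higher calls. The count was 48 with EST probe sets only, 51 with VAD ratios within 10% of 1 only, 404 at 1.5-fold and 25 at 3-fold. For genes 2-fold lower (89) the counts were 58 after centring, 12 with spike-in scaling, 59 with ESTs only, 47 without ESTs, 45 with VAD ratios near 1, 51 with 0.1 added, 584 at 1.5-fold and 11 at 3-fold. Genes with every sequence higher (21) became 186 with spike-in scaling, 12 without shared-probe suffixes, 0 with ESTs only, 5 with VAD ratios near 1, 4 at 2-fold and 0 at 3-fold. Those with every sequence lower (18) became 7 after centring, 0 with spike-in scaling, 8 with ESTs only, 6 without ESTs, 7 with VAD ratios near 1, and 0 at 2-fold and at 3-fold. Those with opposite sequences (33) became 16, 8, 3, 19 and 5 with spike-in scaling, without suffixes, with ESTs only, without ESTs and with VAD ratios near 1, 1 at 2-fold and 0 at 3-fold. Counts from subsets of probe sets rest on fewer genes. Against 1 as the reference, 14 of the 21 higher and 12 of the 18 lower agreeing genes were kept. Without shared-probe suffixes 453 genes still had 2 or more sequences. There, 8 of the 21 higher and 9 of the 18 lower agreeing genes were kept, so some of the 12 higher were other genes. Summaries that leave 1 value a gene give no count of agreement.

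The ribosomal median lay -0.49 from that of all genes, and -0.37 against 1, with ESTs only and with VAD ratios near 1. For the respiratory chain (-0.34) the values were -0.23, -0.20 and -0.27, and -0.26 without suffixes. The list of nuclear receptors and cofactors (0.27) was at 0.19 against 1, 0.14 without suffixes and 0.47 with ESTs only. The growth factor list (0.20) was at 0.27 with the highest probe set, picked on the ratios themselves, and at 0.13 without ESTs. The list without Rps6kb1 was added after the data were seen. The cause of these shifts was not tested.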
